A study of Mus musculus with 8 samples.

Results

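The genes of the proteasome, the protease that degrades ubiquitin-tagged proteins, were followed through chemical inhibition of MYC and release from it in mouse embryonic stem cells. Members were all genes whose symbol starts with Psma, Psmb, Psmc, Psmd, Psme, Psmf or Psmg followed by a digit, which gave 49 of the 18193 genes measured by a probe set with a single gene symbol. Where a gene had several such probe sets, as 27 members did, it was read from the brightest on average. The rule looked at no difference between groups, but the family was chosen with earlier results of these data known. The rule took in Psmc3ip and Psme3ip1, which encode proteins named after a subunit they bind and are not subunits or assembly factors themselves. A probe set shared by Psme2 and Psme2b carries both symbols and was not analysed here.

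Total RNA was hybridised to Affymetrix expression arrays, 1 array per sample, and each value is a log2 level in which 1 unit is a doubling. The group called DMSO (3 arrays) received the solvent for 60 h. The MYCi group (2 arrays) received 64 μM of 10058-F4, a small molecule that interferes with the pairing of MYC with MAX, for 60 h, and the Resc group (3 arrays) was given the same 60 h of inhibitor and then 48 h in 2i medium without it. 2i is a culture medium with inhibitors of the MEK and GSK3 kinases that holds mouse embryonic stem cells in a naive state. The labels do not say that the samples of a group came from separate cultures, so the p-values measure the spread between these samples, which may be technical.

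The 26S proteasome is a barrel with a cap. The barrel, the 20S core, is built of outer alpha rings that gate the entrance and inner beta rings that carry the cutting sites; the cap, the 19S particle, has a base of ATPases that unfold the substrate and a lid that removes its ubiquitin chain. Dedicated chaperones assemble both parts, and alternative caps and inducible catalytic subunits give variants such as the immunoproteasome. Embryonic stem cells are known for high proteasome activity, and MYC is known to bind many genes of general growth and protein turnover at E-box sequences.

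The mean level of 8 stem cell markers was 10.91 to 10.93 on the DMSO arrays, 10.98 to 11.00 on the MYCi arrays and 10.77 to 10.79 on the Resc arrays. Single markers moved more than this mean. With the inhibitor 4 passed the test as higher and 1 as lower, with log2 differences from -1.08 to 0.69. After release 1 passed as lower than with DMSO and none as higher, with differences from -1.33 to 0.16. A list of 8 trophectoderm markers, the genes of the outer layer of the blastocyst, was higher with the inhibitor, with a mean level of 5.19 to 5.25 on the DMSO arrays, 7.21 to 7.41 on the MYCi arrays and 5.37 to 5.43 on the Resc arrays. Of these 8 genes, 5 passed the test as higher with the inhibitor, while the defining markers Cdx2 (log2 difference -0.20) and Elf5 (0.08) did not. After release 1 of the 8 passed as higher than with DMSO and 1 as lower, with differences from -1.08 to 1.59. Mean levels of 9 fibroblast markers (3.53 to 3.73) and 7 endoderm markers (3.57 to 3.78) stayed low on every array. Of these, 1 fibroblast and 2 endoderm markers passed as lower with the inhibitor. The mean of 4 leukocyte markers lay between 5.10 and 5.20 with DMSO, 5.38 and 5.40 with the inhibitor, and 5.37 and 5.45 after release. Against DMSO, 1 leukocyte marker passed as higher with the inhibitor and 2 after release, with differences of up to 1.35 and 0.58, and 0 passed as lower. The log2 difference between the 3′ and 5′ probe sets of Gapdh, a sign of RNA quality, was -0.13 to -0.11 with DMSO, -0.22 to -0.15 with the inhibitor and -0.13 to -0.12 after release. That of Actb overlapped between the groups, at 0.25 to 0.27, 0.25 to 0.29 and 0.25 to 0.28. The part of the marker and Gapdh shifts in the differences of the proteasome genes was not tested. In RNA from whole cultures, fewer cells of a type and less RNA per cell cannot be told apart, and the normalized levels are relative within an array.

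With the MYC inhibitor, 23 of the 49 proteasome genes were lower, 2 were higher and 24 were not called (limma, adjusted p of 0.05 over all genes). Over all genes tested, 22.3% were called lower and 19.2% higher in this comparison. These shares are also the background for the counts by role and by list below. They cover genes of every level, with no filter. The constitutive core and 19S genes were among the brightest, from percentile 89.5 of mean level (Psmd13) to 99.2 (Psma3). Psmb11 stood at 18.7. No background of genes of like level was drawn, so the part of level in these shares was not tested. The median log2 difference of the members was -0.21, a level 0.867 times that of DMSO, and that of all genes was -0.06. The difference was negative for 39 of 49 members (79.6%) and for 59.4% of all genes. On 35 of them both MYCi arrays read below all DMSO arrays, a pattern shown by 35.0% of all genes. The mean level of the 14 constitutive core genes was 10.99, 11.04 and 11.00 on the DMSO arrays, 10.81 and 10.74 on the MYCi arrays, and 10.97, 10.96 and 11.00 on the Resc arrays. For the 17 genes of the 19S particle it was 10.47, 10.51 and 10.49 with DMSO, 10.33 and 10.27 with the inhibitor, and 10.50, 10.52 and 10.51 after release. Both means were lowest on the 2 MYCi arrays. The median of the core genes was lowest there too, but that of the 19S genes was not, at 10.53, 10.51 and 10.63 with DMSO, 10.64 and 10.59 with the inhibitor, and 10.60, 10.56 and 10.52 after release.

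**Figure D1:**
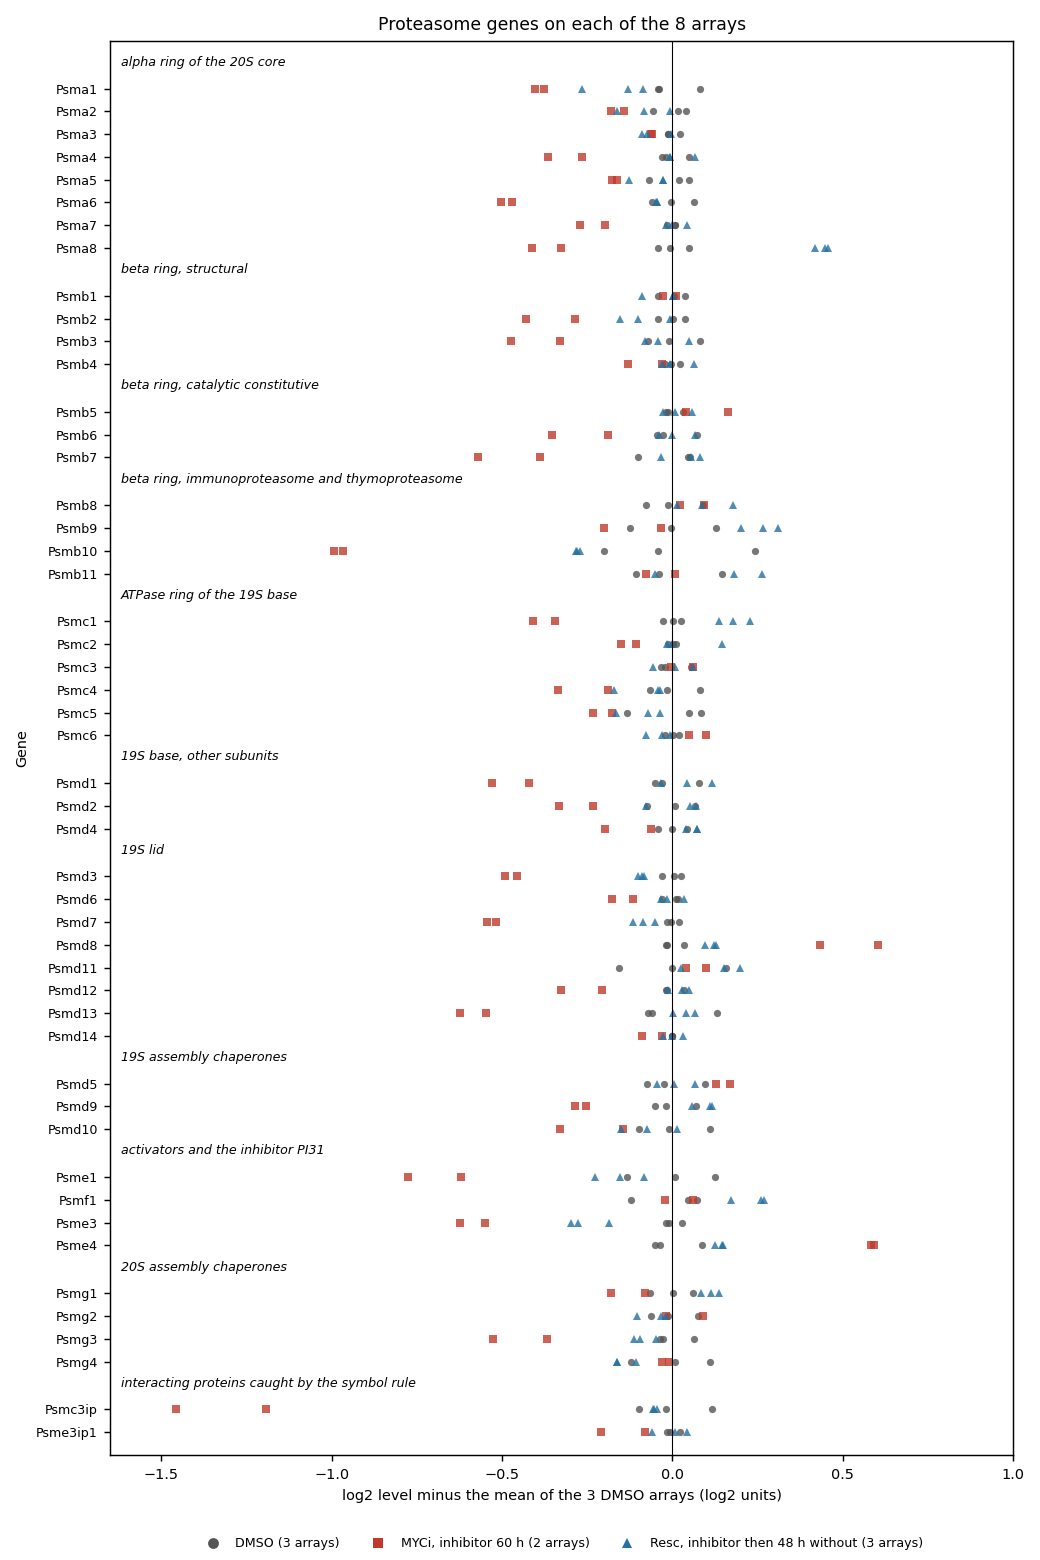
Each row is 1 of the 49 genes, grouped by role, and each point is 1 array, placed by its log2 level minus the mean of the 3 DMSO arrays. Most MYCi squares lie left of 0, those of Psmc3ip and Psmb10 farthest, while those of Psmd8 and Psme4 lie to the right and the Resc triangles of Psma8 stand near 0.44.

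**Figure D2:**
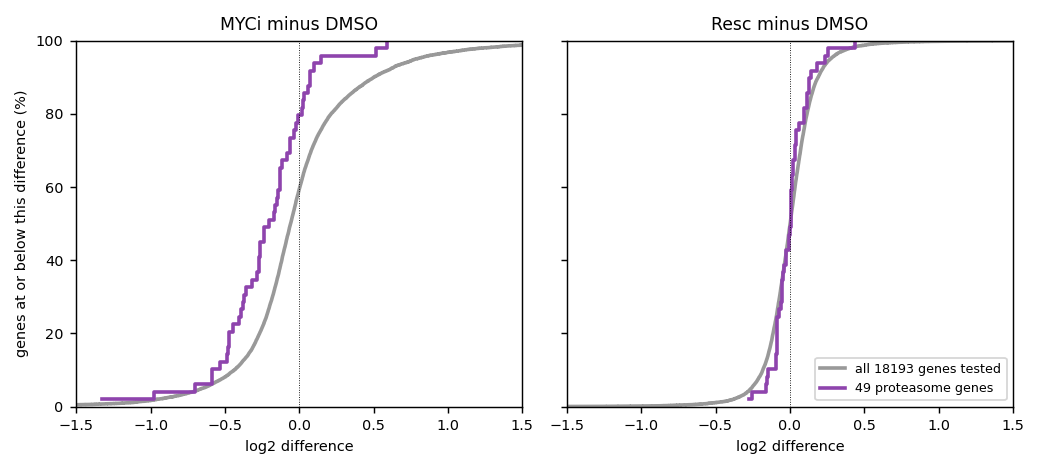
Cumulative share of genes, in percent, at or below each log2 difference, for the 49 proteasome genes and all 18193 genes, with MYCi minus DMSO in one panel and Resc minus DMSO in the other. With the inhibitor the proteasome curve sits left of that of all genes, with medians of -0.21 and -0.06, and after release both curves cross the middle near 0.

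Because MYC and its partners are known to bind the E-box CACGTG, and the factor Nfe2l1 (NRF1), which raises proteasome gene transcription, binds antioxidant response elements, the promoters were searched for these letters on both strands. RefSeq windows on GRCm38.p6, from 250 bases before to 50 bases after a transcription start, were available for 41 of the 49 members. CACGTG stood in the window of 5 of the 41 (12.2%) and of 8.09% of all 27025 genes in the table. Of the 18 members with a window that fell with the inhibitor, 4 held it, against 1 of the 21 that were not called and 0 of the 2 that rose. The share over all genes was not split by call, so this split and those of the other motifs below have no background. The stretches below show every E-box found among the members, with the match in capitals and 30 bases on either side, each read 5′ to 3′ on the strand of the gene.
Psma4, plus strand, chr9:54950689-54950754: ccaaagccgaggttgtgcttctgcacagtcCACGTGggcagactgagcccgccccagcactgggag
Psmb10, minus strand, chr8:105938473-105938538: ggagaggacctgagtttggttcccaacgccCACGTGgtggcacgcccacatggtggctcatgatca
Psmd9, plus strand, chr5:123228109-123228174: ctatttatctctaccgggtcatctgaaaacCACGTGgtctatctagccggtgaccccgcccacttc
Psme3, plus strand, chr11:101316139-101316204: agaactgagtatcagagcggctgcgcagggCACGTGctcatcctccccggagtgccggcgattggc
Psme3ip1, minus strand, chr8:94601834-94601899: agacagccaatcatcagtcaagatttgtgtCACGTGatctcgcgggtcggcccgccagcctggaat

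The antioxidant response element core was searched as TGACNNNGC, and Psmd9 was the only member with both motifs, which did not overlap. It stood in 6 of the 41 windows (14.6%), of which 3 were among the 18 members that fell, 2 among the 21 not called and 1 among the 2 that rose, and in 14.0% of all genes, and the stricter TGACTNNGC, which is contained in it, in 2.44% of the members and 4.26% of all genes. Matches are shown for the catalytic genes Psmb5 and Psmb6, of which Psmb6 fell with the inhibitor, and for Psme4, which rose. They lie 47, 9 and 7 bases before the start site, and the match of Psme4 is on the other strand and runs across the start.
Psmb5, minus strand, chr14:54618004-54618072: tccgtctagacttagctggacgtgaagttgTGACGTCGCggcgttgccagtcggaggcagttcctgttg
Psmb6, plus strand, chr11:70525318-70525356: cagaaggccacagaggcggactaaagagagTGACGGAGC
Psme4, plus strand, chr11:30771738-30771776: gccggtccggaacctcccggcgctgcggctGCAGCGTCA
The CCAAT box, bound by NF-Y, stood in 16 of the 41 windows (39.0%), with 7 among the 18 members that fell, 9 among the 21 not called and 0 among the 2 that rose, and in 41.1% of all genes. These matches describe the letters in the windows only.

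Among the 8 alpha ring genes, which form the gated outer rings, 5 fell with the inhibitor and none rose. Psma6 had the smallest p. Its log2 level was 11.34, 11.46 and 11.39 on the DMSO arrays, 10.93 and 10.89 on the MYCi arrays, and 11.35, 11.35 and 11.35 on the Resc arrays. The MYCi arrays were below all others and the Resc arrays lay within the DMSO range. Psma6 was 1.40-fold lower with the inhibitor (log2 difference -0.49 ± 0.06 SE, limma adjusted p = 0.000143), and the mean of its probe sets gave -0.27 (limma adjusted p = 0.00585). Psma8, the testis-enriched copy of Psma7 found in the proteasome of spermatogenic cells, was the only alpha ring gene called after release against DMSO. Its level was 7.83, 7.86 and 7.92 with DMSO, 7.54 and 7.46 with the inhibitor, and 8.29, 8.33 and 8.32 after release, so that the groups did not overlap and Resc stood above DMSO. Psma8 was 1.29-fold lower with the inhibitor (-0.37 ± 0.06, limma adjusted p = 0.00091). Psma1 (log2 difference -0.39, limma adjusted p = 0.00195), Psma4 (-0.32, 0.00307), whose E-box is printed above, and Psma7 (-0.23, 0.0101) fell as well. Psma1 lost its call when the mean of its 4 probe sets was taken (-0.01, limma adjusted p = 0.939), of which 1 was called lower and 1 higher, and Psma7 lost its call without MYCi replicate 2 (-0.20, limma adjusted p = 0.0818). The differences of Psma2 (-0.16), Psma3 (-0.06) and Psma5 (-0.17) did not pass, with limma adjusted p of 0.0879, 0.452 and 0.0652, and Psma5 passed without DMSO replicate 1 (-0.21, limma adjusted p = 0.0474). The probe sets of Psma3 disagreed: the 2 gave -0.06 and 0.82, the latter called higher, and with their mean Psma3 was called higher (0.38, limma adjusted p = 0.00115).

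Of the 4 structural beta genes, whose proteins close the inner ring but do not cut, Psmb3 and Psmb2 fell. Psmb3 read 11.04, 11.19 and 11.10 with DMSO, 10.78 and 10.64 with the inhibitor, and 11.03, 11.07 and 11.16 after release. Psmb2 read 10.44, 10.48 and 10.52 with DMSO, 10.19 and 10.05 with the inhibitor, and 10.32, 10.38 and 10.47 after release. In both genes the MYCi arrays lay below every other array, and the Resc and DMSO arrays overlapped. With the inhibitor Psmb3 fell by 0.40 ± 0.08 on the log2 scale (limma adjusted p = 0.00195) and Psmb2 was 1.28-fold lower (-0.36 ± 0.07, limma adjusted p = 0.00286). Psmb1 (-0.01, limma adjusted p = 0.933) and Psmb4 (-0.08, 0.351) did not pass.

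Of the 3 constitutive catalytic genes, Psmb6 and Psmb7 fell and Psmb5 was not called. Psmb7, which carries the trypsin-like site, read 10.26, 10.10 and 10.25 with DMSO, 9.81 and 9.63 with the inhibitor, and 10.26, 10.29 and 10.17 after release, with the MYCi arrays well below the rest. It was 1.40-fold lower with the inhibitor (-0.48 ± 0.08, limma adjusted p = 0.000872). Psmb6, which carries the caspase-like site, read 11.01, 11.11 and 11.00 with DMSO, 10.85 and 10.69 with the inhibitor, and 11.04, 11.00 and 11.11 after release. Its 2 MYCi arrays differed by more than the DMSO arrays did, though both were below them. Psmb6 was 1.21-fold lower (-0.27 ± 0.07, limma adjusted p = 0.015), and the call ended without MYCi replicate 2 (-0.19, limma adjusted p = 0.142). Psmb5, which carries the chymotrypsin-like site and is the main target of clinical proteasome inhibitors, read 10.99, 11.04 and 11.00 with DMSO, 11.17 and 11.05 with the inhibitor, and 10.98, 11.02 and 11.07 after release. Its MYCi arrays were slightly above the DMSO arrays, and its difference of 0.10 ± 0.07 did not pass (limma adjusted p = 0.255, 95% interval -0.05 to 0.25). When quantile normalization was repeated, Psmb5 was called higher with the inhibitor than with DMSO (0.18, limma adjusted p = 0.0342) and lower after release than with the inhibitor (-0.17, 0.0403). The annotation places Psmb5 next to Psmb11, the thymus-specific catalytic gene, on chromosome 14, and Psmb11 did not pass either (-0.03, limma adjusted p = 0.825).

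The inducible catalytic genes of the immunoproteasome, which replace the constitutive ones in cells exposed to interferon, gave 1 called fall, that of Psmb10. Psmb10, the counterpart of Psmb7, read 6.55, 6.84 and 6.39 with DMSO, 5.60 and 5.63 with the inhibitor, and 6.32, 6.32 and 6.31 after release. The MYCi arrays lay far below the other arrays, the DMSO arrays were the most spread, and the Resc arrays were just below the lowest of them. Psmb10 was 1.97-fold lower with the inhibitor (-0.98 ± 0.11, limma adjusted p = 6.02e-05), and is the second gene whose E-box is printed above. Its fall exceeded that of Psmb7 by 0.50 on the log2 scale, the values being -0.98 and -0.48, a difference between the pair that carries no test. Psmb9, the counterpart of Psmb6, read 4.40, 4.53 and 4.28 with DMSO, 4.20 and 4.37 with the inhibitor, and 4.67, 4.60 and 4.71 after release. DMSO and MYCi arrays overlapped, and the Resc arrays were above both. Psmb9 differed by -0.12 ± 0.09 with the inhibitor, which did not pass (limma adjusted p = 0.327). Psmb8, the counterpart of Psmb5, read 3.36, 3.43 and 3.53 with DMSO, 3.46 and 3.53 with the inhibitor, and 3.45, 3.53 and 3.62 after release. The groups overlapped at a low level, against 2.15 to 2.95 for the 3 Trpn control probe sets, which match no mouse gene, and the difference of 0.06 ± 0.08 did not pass (limma adjusted p = 0.588, 95% interval -0.11 to 0.23). Psmb8 and Psmb9 lie beside Tap1 on chromosome 17, and neither Tap1 (0.13, limma adjusted p = 0.279) nor Tap2 (-0.09, 0.408), the transporter that carries peptides to MHC class I, passed.

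**Figure D3:**
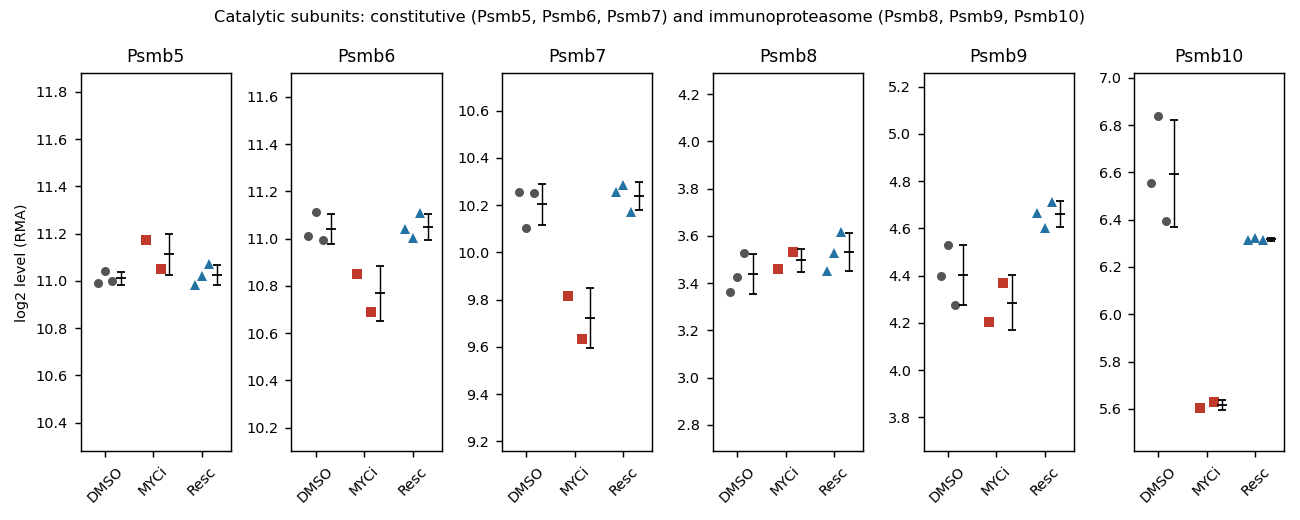
Log2 level of the 6 catalytic subunit genes on each array, with the mean and SD of each group beside the points; every panel spans the same number of log2 units on its own axis, since levels of different probe sets are not comparable. Psmb10, Psmb7 and Psmb6 read lowest on the 2 MYCi arrays, Psmb5 and Psmb8 do not, and Psmb9 reads highest on the 3 Resc arrays.

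In the ATPase ring of the 19S base, the 6 motor subunits, 2 genes fell and 4 were not called. The share that fell was 33.3%, where 22.3% of all genes were called lower. Psmc1 read 10.03, 10.05 and 10.00 with DMSO, 9.68 and 9.62 with the inhibitor, and 10.26, 10.17 and 10.21 after release. The groups did not overlap, with Resc above DMSO and MYCi below. Between Resc and DMSO the 2 probe sets of Psmc1 went opposite ways, at -0.17 and 0.18, and neither was called. Both were called lower with the inhibitor. Psmc1 was 1.30-fold lower with the inhibitor (-0.38 ± 0.06, limma adjusted p = 0.000738). Psmc4 read 10.91, 11.06 and 10.96 with DMSO, 10.64 and 10.79 with the inhibitor, and 10.80, 10.93 and 10.94 after release. One Resc array lay almost at the level of the higher MYCi array. Psmc4 passed with the inhibitor (-0.26 ± 0.08, limma adjusted p = 0.0221), and the call ended without DMSO replicate 2 (-0.22, limma adjusted p = 0.0638) or without MYCi replicate 1 (-0.19, 0.173), while the mean of its probe sets gave -0.39 (0.000555). The other ATPases gave -0.13 for Psmc2, 0.03 for Psmc3, -0.21 for Psmc5 and 0.07 for Psmc6, with limma adjusted p of 0.162, 0.775, 0.0654 and 0.355. The 3 probe sets of Psmc6 ran from -0.29 to 0.07, with 1 called lower and none higher. Psmc5 passed without DMSO replicate 3 (-0.27, limma adjusted p = 0.0175).

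The other base genes encode the large scaffolds Psmd1 and Psmd2, which dock substrate shuttles, and the ubiquitin receptor Psmd4. Psmd1 read 10.53, 10.51 and 10.63 with DMSO, 10.14 and 10.03 with the inhibitor, and 10.60, 10.67 and 10.52 after release. Psmd2 read 11.12, 11.26 and 11.20 with DMSO, 10.96 and 10.86 with the inhibitor, and 11.12, 11.27 and 11.25 after release. The MYCi arrays were lowest in both scaffolds and the remaining arrays overlapped. Psmd1 was 1.39-fold lower (-0.47 ± 0.07, limma adjusted p = 0.000548) and Psmd2 1.22-fold (-0.28 ± 0.07, limma adjusted p = 0.0119), a call that ended without MYCi replicate 2 (-0.23, limma adjusted p = 0.0984). Psmd4 did not pass (-0.13, limma adjusted p = 0.148).

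Read from 1 probe set per gene, the lid held both the strongest falls of the 19S particle and its only rise: 4 of its 8 genes fell and 1 rose. The ranking of the falls depended on that choice of probe set. Psmd7, the inactive partner of the deubiquitinase subunit, read 10.11, 10.15 and 10.12 with DMSO, 9.61 and 9.58 with the inhibitor, and 10.04, 10.01 and 10.08 after release. Psmd3, a scaffold of the lid, read 9.48, 9.51 and 9.53 with DMSO, 9.05 and 9.01 with the inhibitor, and 9.42, 9.41 and 9.42 after release. Replicates of both genes lay close together, the MYCi arrays were far below, and the Resc arrays were just under the DMSO arrays. Psmd7 was 1.45-fold lower (-0.53 ± 0.06, limma adjusted p = 5.25e-05) and Psmd3 1.39-fold (-0.47 ± 0.06, limma adjusted p = 0.000109). The mean over the 3 probe sets of Psmd7, whose differences ran from -0.53 to 0.28, did not pass (-0.08, limma adjusted p = 0.433). Psmd13 was 1.50-fold lower (-0.59 ± 0.08, limma adjusted p = 0.000164). Its 4 probe sets ran from -0.59 to 0.35, with 2 called lower and none higher, and their mean gave -0.23 (limma adjusted p = 0.0174). Psmd12 fell by 0.27 (limma adjusted p = 0.00731), a call that ended without MYCi replicate 2 (-0.21, limma adjusted p = 0.0756). Psmd8, whose protein joins the lid last, was taken up after its values were seen because it rose. It read 10.26, 10.31 and 10.26 with DMSO, 10.88 and 10.71 with the inhibitor, and 10.37, 10.40 and 10.40 after release, so that both MYCi arrays were above all others. Psmd8 was 1.43-fold higher (0.52 ± 0.07, limma adjusted p = 0.000168). Psmd14, the deubiquitinase itself, gave -0.06 (limma adjusted p = 0.451, 95% interval -0.19 to 0.07), and Psmd6 (-0.15, 0.0787) and Psmd11 (0.07, 0.596) did not pass. The 8 probe sets of Psmd11 ran from -0.27 to 0.07, with 2 called lower and none higher.

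Among the assembly chaperones 2 genes fell and none rose, where 22.3% of all genes were called lower and 19.2% higher. Of the 3 genes for chaperones of the 19S base, Psmd9 passed: it read 7.26, 7.38 and 7.29 with DMSO, 7.05 and 7.02 with the inhibitor, and 7.37, 7.42 and 7.43 after release, with the MYCi arrays lowest (-0.27 ± 0.06, limma adjusted p = 0.00683). Its 3 probe sets ran from -0.27 to 0.53 with 1 called each way, and their mean did not pass (limma adjusted p = 0.987). Psmd10, also called gankyrin, read 7.81, 7.93 and 7.72 with DMSO, 7.67 and 7.49 with the inhibitor, and 7.67, 7.74 and 7.83 after release. Its groups of Resc and MYCi overlapped, and neither Psmd10 (-0.24 ± 0.09, limma adjusted p = 0.0555) nor Psmd5 (0.15, 0.126) passed, although Psmd10 did without DMSO replicate 3 (limma adjusted p = 0.0384) or MYCi replicate 1 (0.0416). Of the 4 genes for chaperones of the core, Psmg3 passed. It read 8.56, 8.66 and 8.57 with DMSO, 8.23 and 8.07 with the inhibitor, and 8.50, 8.55 and 8.48 after release. The MYCi arrays were lowest and the Resc arrays just under the DMSO arrays. Psmg3 was 1.36-fold lower with the inhibitor (-0.45 ± 0.07, limma adjusted p = 0.000582). The other probe set of Psmg3 was called higher (0.31), and the mean of both did not pass (-0.07, limma adjusted p = 0.377). Psmg1, which with Psmg2 forms the dimer that starts the alpha ring, read 9.76, 9.82 and 9.69 with DMSO, 9.68 and 9.58 with the inhibitor, and 9.84, 9.87 and 9.90 after release. The Resc arrays were the highest, and the difference with the inhibitor did not pass for Psmg1 (-0.13 ± 0.07, limma adjusted p = 0.15), Psmg2 (0.04, 0.727) or Psmg4 (-0.02, 0.863).

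The alternative caps moved in opposite directions. Psme4 encodes PA200, a nuclear cap that opens the core without ATP or ubiquitin and is known for the turnover of acetylated histones. It read 11.29, 11.28 and 11.41 with DMSO, 11.91 and 11.92 with the inhibitor, and 11.47, 11.48 and 11.45 after release. The MYCi arrays were far above all others, and the Resc arrays lay just above the DMSO arrays. Psme4 was 1.50-fold higher with the inhibitor (0.59 ± 0.07, limma adjusted p = 5.25e-05), and all 6 of its probe sets were called higher, by 0.57 to 1.31. Psme3 encodes the nuclear activator PA28 gamma. It read 7.30, 7.34 and 7.30 with DMSO, 6.76 and 6.69 with the inhibitor, and 7.02, 7.13 and 7.04 after release, with 3 groups that did not overlap and Resc in between. Psme3, whose E-box is printed above, was 1.50-fold lower with the inhibitor (-0.59 ± 0.06, limma adjusted p = 5.17e-05; -0.34 for the mean of its probe sets). Psme1, the interferon-inducible PA28 alpha, was 1.62-fold lower (-0.70 ± 0.09, limma adjusted p = 0.000147). Psmf1, the regulator PI31, gave 0.02 (limma adjusted p = 0.859).

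The largest fall among all 49 members was that of Psmc3ip, which is named after the ATPase gene Psmc3 and encodes a cofactor of meiotic recombination. It read 7.99, 8.20 and 8.07 with DMSO, 6.89 and 6.63 with the inhibitor, and 8.04, 8.03 and 8.03 after release. The MYCi arrays were more than a log2 unit below the others, and the Resc arrays sat inside the DMSO range. Psmc3ip was 2.51-fold lower (-1.33 ± 0.09, limma adjusted p = 2.33e-06). Psme3ip1, a partner of Psme3, read 8.94, 8.91 and 8.91 with DMSO, 8.84 and 8.71 with the inhibitor, and 8.86, 8.96 and 8.93 after release. It did not pass (-0.15 ± 0.07, limma adjusted p = 0.111), and its E-box is printed above too. Without this pair, 22 of the other 47 members were lower, 2 were higher and the median difference stayed at -0.21.

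At 48 h after withdrawal of the inhibitor, few proteasome genes were called different from DMSO. The DMSO and MYCi groups were not kept for these further 48 h. Release and the longer culture therefore cannot be told apart in either comparison of Resc. In limma at an adjusted p of 0.05, 1 member was higher (Psma8) and 1 lower (Psme3), where 4.66% of all genes were higher and 4.01% lower. The median difference of the members was 0.00, as was that of all genes. Psma8 was 1.36-fold higher after release than with DMSO (0.44 ± 0.06, limma adjusted p = 0.0013), and the call held under each of 18 other settings. Psme3 stayed 1.19-fold lower (-0.25 ± 0.06, limma adjusted p = 0.0249). That call ended under 8 of the 18 settings, among them without DMSO replicate 1, 2 or 3 (limma adjusted p = 0.0608, 0.0742 and 0.0602) and without Resc replicate 1 or 3 (0.0888 and 0.0839). Psmf1 (0.23, limma adjusted p = 0.0673), Psmb9 (0.26, 0.0753, 95% interval 0.08 to 0.43), Psmc1 (0.18, 0.0775) and Psmb10 (-0.28, 0.124) came next and did not pass. The other probe set of Psmc1 gave -0.17. Psmf1 passed under 3 of the 18 settings, and Psmc1, Psmb9 and Psmb10 under 2 each. Psmb9 passed without DMSO replicate 2 (0.32, limma adjusted p = 0.0475) and Psmb10 without DMSO replicate 3 (-0.38, 0.0385). Psme4 (0.14, limma adjusted p = 0.185) passed as higher under 2 settings, among them the mean of its probe sets (0.25, 0.0303). Psma1 (-0.16, limma adjusted p = 0.189) passed as lower under 1. Over all genes, 847 were called higher and 729 lower in this comparison, and centring each array on its median turned this to 654 and 1024, with the same count of members.

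Set against the inhibited cells, the released cells had 26 members higher and 2 lower, where 22.7% of all genes were higher and 19.2% lower. The median difference was 0.21 for the members and 0.06 for all genes. This comparison shares its MYCi arrays with the first and its Resc arrays with the second, so its signs are not independent of theirs. Of the 23 members lower with the inhibitor, 22 were higher after release than with the inhibitor, and Psmc4 (0.18, limma adjusted p = 0.097) was not called. Psmc3ip (1.27, limma adjusted p = 2.71e-06), Psma8 (0.81 ± 0.06, 4.53e-06) and Psmb10 (0.70 ± 0.11, 0.000541) had the largest differences named above, and the genes that had risen, Psme4 (-0.45, 0.000317) and Psmd8 (-0.40, 0.000857), were lower. Psmb9, Psmd4, Psmf1 and Psmg1 were higher after release than with the inhibitor without having been called with it, and 20 members were called in no comparison. In this comparison the call of Psmd4 ended under 11 of the 18 settings, that of Psma1 under 9 and that of Psmf1 under 8. Without MYCi replicate 2 the count of higher members was 17. In that setting Psmg1 (0.19, limma adjusted p = 0.118) and Psmd4 (0.12, 0.278) were among those that did not pass, and Psmb9 did not pass without MYCi replicate 1 (0.29, 0.0685). A call that was missed does not show that the levels were the same: the median standard error of a member was 0.07 on the log2 scale between MYCi and DMSO and 0.06 between Resc and DMSO.

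Partners of the proteasome that lie outside the symbol rule went both ways, with 5 of 15 measured genes higher and 2 lower with the inhibitor. These were 33.3% and 13.3%, where 19.2% of all genes were called higher and 22.3% lower. Pomp, the chaperone that completes the core by helping its part-built forms to join, read 10.40, 10.49 and 10.46 with DMSO, 9.63 and 9.54 with the inhibitor, and 10.40, 10.41 and 10.41 after release. Its MYCi arrays were far below the rest, a 1.82-fold fall (-0.86 ± 0.06, limma adjusted p = 3.36e-06). Sem1, a small lid subunit, fell by 0.54 (limma adjusted p = 3.65e-05). Ecpas, whose protein binds both core and cap, rose by 1.14 ± 0.09 (limma adjusted p = 7.59e-06), and Zfand5, an activator of the proteasome, by 0.44 ± 0.07 (0.000426). With the mean of probe sets these were 0.51 for Ecpas and 0.22 for Zfand5. Ecpas was the only gene of this list called after release against DMSO (0.56, limma adjusted p = 0.003), and the mean of its probe sets did not pass there (0.28, limma adjusted p = 0.0554).

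Genes that control proteasome transcription were mostly higher, with 8 of 12 up, 3 down and a median difference of 0.53. Maff (1.44 ± 0.06, limma adjusted p = 1.23e-07) and Mafg (1.16 ± 0.07, 9.81e-07), small partners of the NRF factors, rose. Bach1, a repressor at the same elements, rose by 1.00 ± 0.07 (limma adjusted p = 1.78e-06). Nfyb, a subunit of NF-Y, was 1.93-fold lower (-0.95 ± 0.06, limma adjusted p = 1.28e-06). Nfe2l1, the factor known to raise proteasome genes when proteasome activity is short, also rose (0.64, limma adjusted p = 3.71e-05). None of the 12 was called after release against DMSO.

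Vcp, the p97 ATPase that hands substrates to the proteasome, gave -0.03 (limma adjusted p = 0.681), while 7 of 12 genes of p97 and its cofactors were higher and none lower. Sel1l, the adaptor of the endoplasmic reticulum ligase Syvn1, rose by 1.66 ± 0.07 (limma adjusted p = 1.92e-07), or 1.02 with the mean of its probe sets. Syvn1 (0.59 ± 0.08, limma adjusted p = 0.000185), Derl1 (0.56 ± 0.06, 4.21e-05) and Faf1 (0.45 ± 0.06, 0.000198) rose too. None of these 12 was called after release against DMSO. Of 9 ubiquitin and E1 genes only Uba6 (0.24, limma adjusted p = 0.00709) and Uba3 (0.32, 0.00723) had a probe set with a single symbol here. Both were called higher, but Uba6 lost its call without MYCi replicate 1 (limma adjusted p = 0.0548) and turned to -0.08 with the mean of its probe sets, and Uba3 lost its call without MYCi replicate 2 (0.22, limma adjusted p = 0.083).

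In the antigen processing and interferon list, whose genes share inducers with the immunoproteasome, 4 of 12 rose and 2 fell. These were 33.3% and 16.7%, where 19.2% of all genes were called higher and 22.3% lower. H2-D1 (1.46 ± 0.09, limma adjusted p = 1.4e-06) and H2-K1 (0.99 ± 0.08, 4.75e-06), the heavy chains of MHC class I, rose. The size for H2-D1 depended on the probe set: the mean of its probe sets gave 0.38 (limma adjusted p = 0.000369). Irf1 (-0.65 ± 0.06, limma adjusted p = 1.97e-05) and Irf9 (-0.37 ± 0.08, 0.00338), transcription factors of the interferon response, fell, as did Psmb10 and Psme1 above. After release H2-D1 alone of the 12 was called against DMSO (0.57, limma adjusted p = 0.00263), with 0.19 (0.0482) for the mean of its probe sets.

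**Figure D4:**
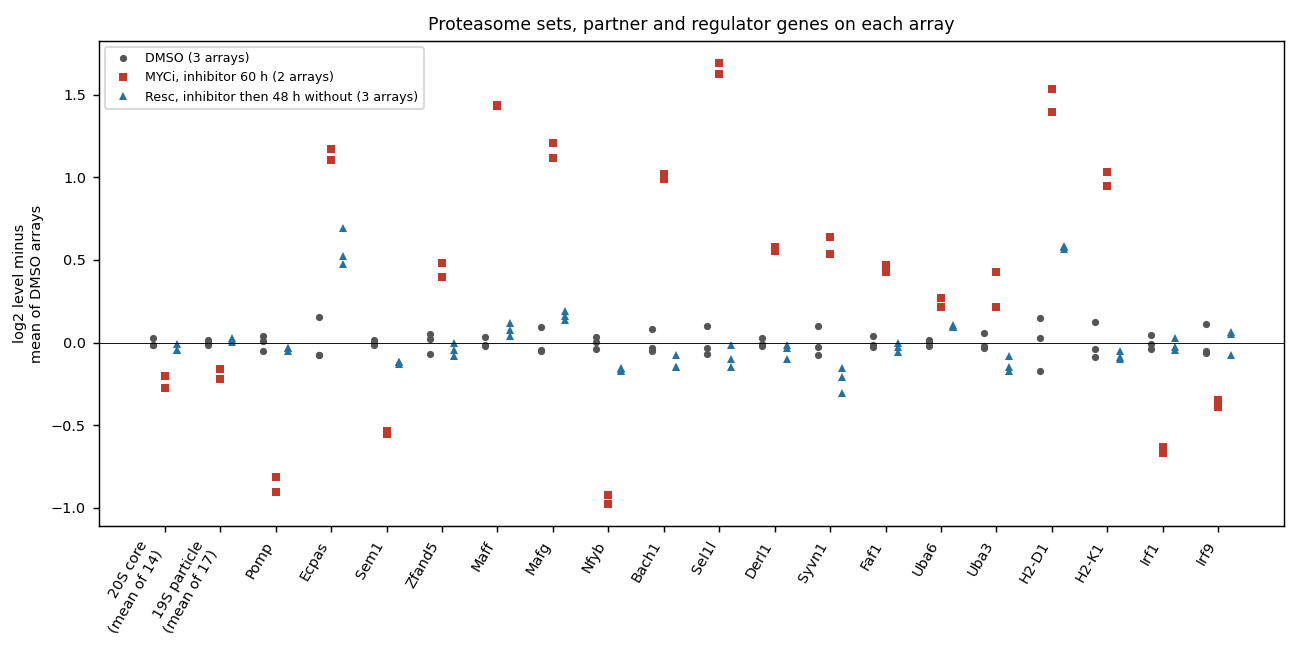
Log2 level on each array minus the mean of the 3 DMSO arrays, for the mean of the 14 core genes, the mean of the 17 genes of the 19S particle, and up to 4 genes of each related list that passed with the smallest p. The MYCi squares of Pomp, Sem1, Nfyb, Irf1 and Irf9 lie below 0 with the proteasome sets, those of the other genes lie above 0, and the Resc triangles of Ecpas and H2-D1 stay near 0.56 and 0.57.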

How the data were processed

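Total RNA of 8 samples was measured on Affymetrix arrays. The deposited values are log2 levels made by the authors with RMA (background correction, quantile normalization, probe summary); oligo 1.32.0 and limma 3.2.15 are named per the submitters' processing notes. No source used here states the scale, and log2 was inferred from the range of the deposited values. Probe sets were named from the platform annotation: 34945 of 45101 carry 1 symbol. The probe set with the highest mean represented each of 18193 genes, with no filter on level. All 8 arrays entered 1 linear model (limma 3.58.1 in R 4.3.3; 5 residual and 4.55 prior degrees of freedom), with Benjamini-Hochberg adjustment over all genes and a threshold of 0.05. Tables and figures used Python 3.11.15, pandas 2.3.3 and matplotlib 3.10.9. Scripts were tested on simulated data. Values on every array are given for Psmb5 to Psmb10, the 2 members of each other role with the smallest p, and members called after release; pathway lists give up to 4 passing genes, and others named were chosen after their values were seen. Members and lists were chosen with earlier results of these data known. Alternatives changed the probe set rule, level filter, scaling, variance model, array weights, arrays fitted, threshold, replicate block and each array in turn. The number of arrays limits the precision.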

Additional observations from a re-analysis of the deposited data

How the results depend on the processing

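Each result was recomputed under 18 other settings, 1 of them, the centring of arrays on the median of the genes tested, chosen after seeing the data. For Psmb8 and Psmb11 there were 17, since both lie below the level filter. All 18 settings were run. Calls that held in every setting numbered 16 of 25 with the inhibitor against DMSO, 1 of 2 after release against DMSO and 15 of 28 after release against the inhibitor. In the same order, 12 of 24, 6 of 47 and 7 of 21 members that were not called gained a call in at least 1 setting. With the mean of all probe sets the median difference of the members with the inhibitor was -0.14, and Psmg3 after release against the inhibitor turned from 0.36 to -0.079, since its probe sets disagree; Uba6 with the inhibitor turned from 0.24 to -0.078. The scalings gave 23 to 32 members lower and 2 to 3 higher with the inhibitor. After release against DMSO, the members called higher numbered 3 with the mean of probe sets, 4 without genes below the 30th percentile of level and 4 with a variance trend and robust prior. Those called lower numbered 0 with the mean of probe sets, 3 with the variance trend and 0 at an adjusted p of 0.01. Repeated quantile normalization gave 4 members lower after release against the inhibitor. The causes were not tested. Leaving out each array in turn gave 19 to 25 members lower with the inhibitor, 1 to 2 higher and 0 to 1 lower after release against DMSO, and 17 to 26 higher after release against the inhibitor. The replicate numbers are not known to pair the samples. Deviations of arrays from their group mean correlated at -0.056 to 0.014 for the same number and -0.060 to 0.069 for different numbers. With 2 or 3 arrays in a group the deviations are tied to each other, so these values cannot decide whether samples were paired. With the number as a replicate block the count lower after release against DMSO was 0. A setting that leaves 1 MYCi array assumes that it varies like the other groups. Low levels such as that of Psmb8 limit what could be detected.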
